A study of Rattus norvegicus with 9 samples.

Results

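The genes of the platelet-derived growth factor (PDGF) family were followed in mesenchymal stem cells (MSCs) of rat bone marrow, adherent stromal cells able to form bone, fat and cartilage. The 6 genes were chosen by symbol in a table of 33539 genes and comprise 4 ligand genes (Pdgfa, Pdgfb, Pdgfc and Pdgfd) and 2 receptor genes (Pdgfra and Pdgfrb). The cells had spent 48 h in an SA hydrogel whose stress relaxation was fast, medium or slow (Fast, Medium and Slow), with 3 libraries in each group and low-glucose DMEM with serum as the medium throughout. The labels give no animal strain, age, passage, gel stiffness or gel-free control. They do not say whether the 3 libraries of a group stem from different animals or dishes. The p-values therefore reflect only how far these libraries vary, which may be technical variation. Each library held between 14128980 and 15779328 counts, and replicate libraries differed by more than counting noise. The question put to the table was where each ligand and receptor stood in the 3 gels and which of them differed between gels.

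PDGFs are secreted dimers that drive the division and migration of mesenchymal cells, and they are named for platelets, from which they were first purified. Each receptor is a tyrosine kinase that a bound dimer brings together in pairs. PDGF-AA and PDGF-CC act mainly through the alpha receptor, PDGF-DD mainly through the beta receptor, and PDGF-BB through both. PDGF-A and PDGF-B are cut to their active form inside the cell by proteases such as furin, whereas PDGF-C and PDGF-D are secreted with a CUB domain that proteases remove outside the cell. In bone marrow both receptors are used as markers of stromal cells and of the pericytes around vessels.

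The family members spanned a wide range of levels. Levels of different genes were compared as deposited FPKM, which scale reads by gene length and library size. In Fast gels Pdgfrb stood highest at 139 ± 2.87 FPKM (SD, n = 3, as for all FPKM and CPM means below), followed by Pdgfra at 122 ± 3.14 and Pdgfa at 23.8 ± 1.96. Pdgfc followed at 6.82 ± 0.280, Pdgfd at 2.66 ± 0.308 and Pdgfb at 0.178 ± 0.0332 FPKM. In Medium gels the order was Pdgfrb at 82.4 ± 0.957, Pdgfa at 69.8 ± 1.24 and Pdgfra at 60.8 ± 1.79 FPKM, then Pdgfc at 6.88 ± 0.448, Pdgfd at 1.97 ± 0.231 and Pdgfb at 0.0935 ± 0.0610. In Slow gels Pdgfrb at 77.6 ± 1.89 and Pdgfa at 76.6 ± 1.42 FPKM were neighbours whose libraries overlapped, ahead of Pdgfra at 64.5 ± 0.931. Below them in Slow gels came Pdgfc at 8.32 ± 0.522, Pdgfd at 1.26 ± 0.0776 and Pdgfb at 0.112 ± 0.0829 FPKM. All other neighbours in these orders had libraries that did not overlap within a gel. Averaged over the 9 libraries, Pdgfrb had a higher FPKM than 95% of the 14406 genes that passed the filter on low counts, Pdgfra than 93.8%, Pdgfa than 90.7%, Pdgfc than 46.2% and Pdgfd than 20.5%. Pdgfb did not pass the filter.

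**Figure D1:**
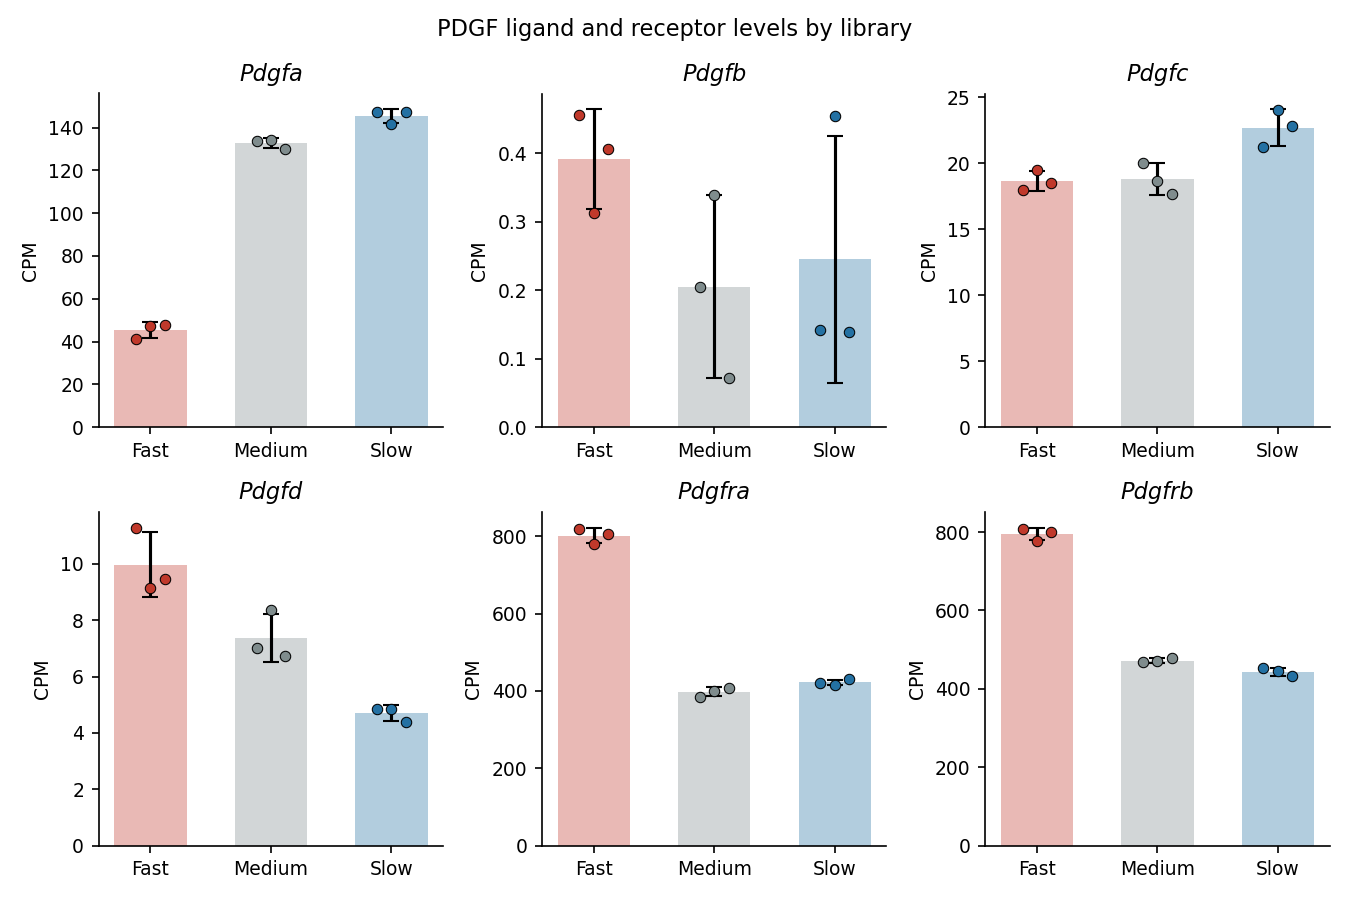
Levels of the 6 PDGF genes in CPM (counts scaled to library size with TMM factors) in Fast, Medium and Slow gels; points are libraries, bars are means and error bars are SD (n = 3). Pdgfa is low and both receptors are high in Fast, Pdgfd steps down across the 3 gels, and Pdgfb stays under 0.5 CPM in every library.

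Pdgfa, the gene of the A chain (ENSRNOG00000001312, chromosome 12 from 17734133 to 17755285 in the deposited table, whose build is not given in the sources used here), was the most abundant ligand gene in every library. Levels of 1 gene across libraries are given as counts per library size scaled with TMM factors (CPM), and a difference is called where its adjusted p is under 0.05. Pdgfa had 41.1, 47.2 and 47.8 CPM in the Fast libraries, 134, 134 and 130 CPM in the Medium libraries and 147, 142 and 147 CPM in the Slow libraries. The Fast libraries lay far below all others, and the Medium libraries lay just below the Slow ones without overlap. In bulk RNA of this kind, fewer cells of a type and less RNA per cell cannot be told apart. Pdgfa fell by 1.68 ± 0.052 on the log2 scale in Fast against Slow (SE, edgeR adjusted p = 2.67e-12), a 3.21-fold lower level. In Fast against Medium it fell by 1.55 ± 0.053 (adjusted p = 1.27e-11). Of the 14406 tested genes, 186 had a more negative difference in Fast against Slow and 141 in Fast against Medium. In Medium against Slow the difference of -0.13 ± 0.048 did not pass (adjusted p = 0.106), with a 95% interval, unadjusted, from -0.24 to -0.029. Medium did not lie midway between the others but lay above the midpoint of Fast and Slow by 0.71 ± 0.043 (adjusted p = 2.81e-08).

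The bases before the gene start are shown for Pdgfa, the ligand gene with the lowest level in Fast relative to Slow, and for Pdgfra, the receptor gene with the larger rise, because they moved in opposite directions. They are the 250 bases upstream of the start in RefSeq's GRCr8 build, 5′ to 3′ on the strand of the gene, at chr12:20759116-20759365 (plus strand) for Pdgfa and chr14:33408517-33408766 (minus strand) for Pdgfra. RefSeq windows were at hand for 5 of the 6 genes. The 4 motifs named in the next paragraph were searched on both strands, and matches are in capitals.
Pdgfa: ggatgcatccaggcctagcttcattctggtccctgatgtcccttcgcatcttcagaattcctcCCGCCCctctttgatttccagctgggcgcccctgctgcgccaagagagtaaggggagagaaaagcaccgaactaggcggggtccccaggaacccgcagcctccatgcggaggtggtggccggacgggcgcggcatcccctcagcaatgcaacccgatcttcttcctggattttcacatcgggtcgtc
Pdgfra: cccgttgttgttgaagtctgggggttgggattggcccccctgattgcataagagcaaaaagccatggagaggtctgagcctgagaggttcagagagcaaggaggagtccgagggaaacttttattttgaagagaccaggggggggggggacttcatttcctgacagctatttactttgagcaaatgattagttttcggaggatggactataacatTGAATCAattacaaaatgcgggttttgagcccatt

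The windows differed in composition and in their matches. The Pdgfa window was 60.8% G and C with 15 CpG pairs, and the Pdgfra window 47.2% with 4, against a median of 51.2% over 33469 windows of the same length. Pdgfa held the GC box GGGCGG on the opposite strand at -187 to -182, counting the base before the start as -1, and so did Pdgfb at -207 to -202 and Pdgfd at -114 to -109. That motif was found in 30.5% of all windows. Pdgfra held TGAATCA at -35 to -29. It matched TGANTCA, a loose pattern for AP-1 that allows any base at its centre, here A. That loose pattern was found in 6.34% of windows. GCGNGGGCG, the motif of EGR factors (4.29% of windows), and TATAAA (12.9%) were in none of the 5 windows, and the Pdgfc window held none of the motifs. No match overlapped another. A match is a run of letters and not a binding site.

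Pdgfb, the gene of the B chain (ENSRNOG00000017197, chromosome 7 from 121214628 to 121232741), was at the edge of detection. The counts were 7, 5 and 6 reads in Fast gels, 3, 5 and 1 in Medium gels and 2, 7 and 2 in Slow gels. The ranges of all 3 groups overlapped, in reads and in CPM. Summed over a group, this is 18 reads in Fast (exact 95% Poisson interval 10.7 to 28.4), 9 in Medium (4.12 to 17.1) and 11 in Slow gels (5.49 to 19.7), intervals that cover counting error only. A two-sided exact permutation test of CPM gave p = 0.3 for Fast against Slow, 0.7 for Medium against Slow and 0.2 for Fast against Medium, where 3 against 3 libraries allow no p below 0.1. No difference was detectable at this depth.

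Pdgfc, which encodes a ligand of the alpha receptor (ENSRNOG00000010695, chromosome 2 from 179952227 to 180128283), moved little. It had 18.0, 19.5 and 18.5 CPM in Fast gels, 20.1, 18.7 and 17.6 CPM in Medium gels and 21.2, 24.0 and 22.8 CPM in Slow gels. The Slow libraries lay above all others, and Fast and Medium overlapped. In Fast against Slow it fell by 0.28 ± 0.080 on the log2 scale (adjusted p = 0.0102), a call lost under scaling by library size alone (adjusted p = 0.0602). In Medium against Slow it fell by 0.27 ± 0.080 (adjusted p = 0.0436), and this call was lost in 6 of the 9 fits that each left out 1 library (those without Fast replicate 2 or 3, Medium replicate 2 or 3, or Slow replicate 2 or 3), with adjusted p between 0.0512 and 0.154. Fast against Medium differed by -0.010 ± 0.081 (adjusted p = 0.94, unadjusted 95% interval from -0.18 to 0.16), and its sign turned under 2 other scalings.

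Pdgfd, which encodes a ligand of the beta receptor (ENSRNOG00000029148, chromosome 8 from 4440876 to 4669014), went the opposite way to Pdgfa. It had 11.3, 9.13 and 9.47 CPM in Fast gels, 7.03, 8.35 and 6.74 CPM in Medium gels and 4.85, 4.87 and 4.37 CPM in Slow gels. No library of one group overlapped with another group, and the levels were highest in Fast and lowest in Slow. Pdgfd rose by 1.08 ± 0.15 in Fast against Slow (adjusted p = 2.64e-05), 2.12-fold. It also rose by 0.65 ± 0.15 in Medium against Slow (adjusted p = 0.0108) and by 0.43 ± 0.14 in Fast against Medium (adjusted p = 0.0279). Medium did not differ detectably from the midpoint (0.11 ± 0.12, adjusted p = 0.666). Pdgfd had 63 to 173 reads per library, and the calls of the smaller steps depended on which libraries were included. The Medium against Slow call was lost without Medium replicate 2 (0.55, adjusted p = 0.0565). The Fast against Medium call was lost without Fast replicate 1 (0.33, adjusted p = 0.115), Medium replicate 1 (0.40, adjusted p = 0.0873) or Medium replicate 3 (0.37, adjusted p = 0.101).

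Both receptor genes were higher in Fast gels. Pdgfra, the alpha receptor (ENSRNOG00000002244, chromosome 14 from 35527927 to 35581031), had 819, 780 and 806 CPM in Fast gels, 385, 401 and 408 CPM in Medium gels and 420, 416 and 430 CPM in Slow gels. The Fast libraries were clearly apart, and Medium lay just under Slow without overlap. It rose by 0.93 ± 0.030 in Fast against Slow (adjusted p = 4.23e-12), 1.90-fold, and by 1.01 ± 0.030 in Fast against Medium (adjusted p = 3.34e-12), 2.01-fold. Medium against Slow was -0.084 ± 0.030 (adjusted p = 0.102, unadjusted 95% interval from -0.15 to -0.019).

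Pdgfrb, the beta receptor (ENSRNOG00000018461, chromosome 18 from 56364620 to 56406381), had 808, 777 and 800 CPM in Fast gels, 468, 470 and 479 CPM in Medium gels and 453, 447 and 433 CPM in Slow gels. Fast again stood apart, but here Medium lay just above Slow. The gene rose by 0.84 ± 0.027 in Fast against Slow (adjusted p = 4.23e-12), 1.79-fold, and by 0.75 ± 0.027 in Fast against Medium (adjusted p = 2.58e-11), 1.68-fold. Medium against Slow was 0.089 ± 0.028 (adjusted p = 0.0569), which passed the threshold with upper quartile factors (0.10, adjusted p = 0.0278) or library size only (0.10, adjusted p = 0.022). Medium lay below the midpoint of Fast and Slow for both receptors, with differences of -0.55 ± 0.027 for Pdgfra (adjusted p = 3e-09) and -0.33 ± 0.024 for Pdgfrb (adjusted p = 2.12e-07). The myeloid markers described further on had a summed level of 2938 to 3091 CPM in Fast gels, 2049 to 2063 in Medium gels and 1741 to 1815 in Slow gels, and their part in the receptor and Pdgfd differences was not tested.

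**Figure D2:**
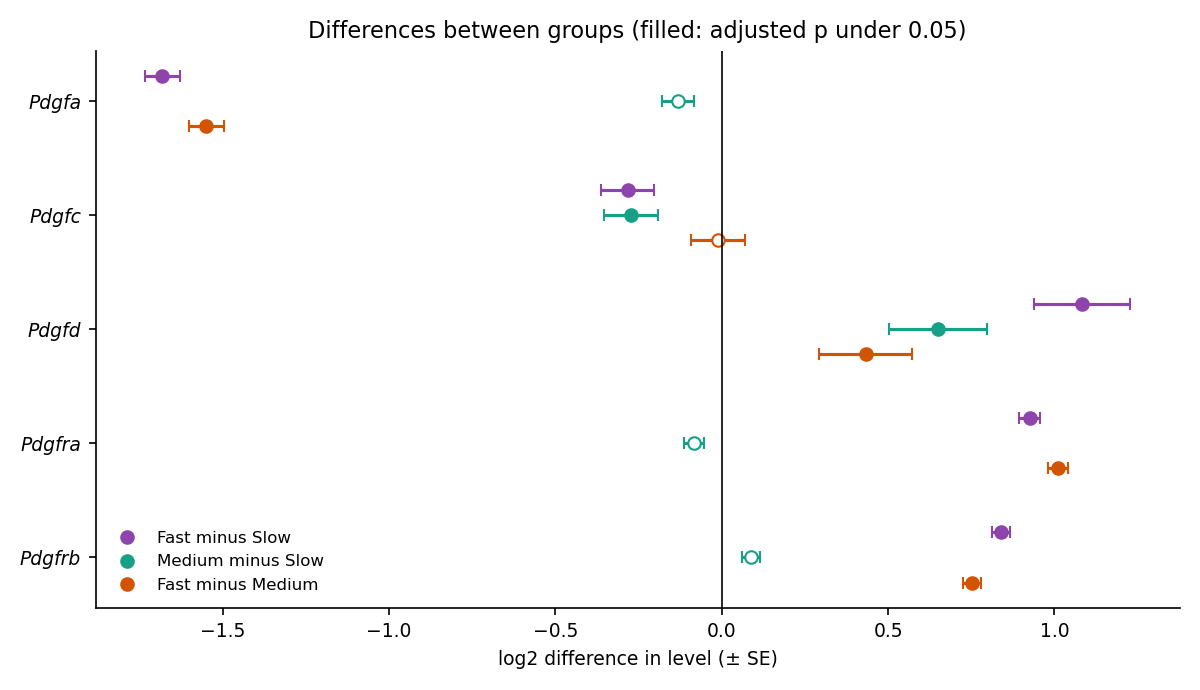
Log2 differences in level between groups with their SE (edgeR, 9 libraries in 1 model) for the 5 PDGF genes that passed the filter; filled points have an adjusted p under 0.05 over all 14406 genes. The differences that involve Fast are the large ones for Pdgfa, Pdgfra and Pdgfrb, between -1.68 and 1.01, and Medium minus Slow is filled for Pdgfc and Pdgfd.

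The 3 pairs of gels share libraries, so their counts are not independent. Counted over the family, 5 of the 6 genes passed the filter on low counts. In Fast against Slow all 5 of these were called, 3 higher and 2 lower, where 42.9% of the 14406 tested genes were called (21.2% higher and 21.7% lower), and the libraries of none overlapped, which held for 51.7% of tested genes. In Fast against Medium 4 were called, 3 higher and 1 lower, where the background was 33.0% (15.6% higher and 17.3% lower), and 4 did not overlap, against 44.6% of tested genes. In Medium against Slow 2 were called, 1 higher and 1 lower, where the background was 10.3% (4.74% higher and 5.57% lower), and none of the 5 overlapped, against 29.5% of tested genes. For Medium against the midpoint it was 3 genes, 1 above and 2 below, where 12.1% of tested genes were called (7.20% above and 4.89% below). The Medium against Slow count was unstable. It was 0 without Medium replicate 2, although all 5 genes then had an unadjusted p in edgeR that was under 0.05. The count was 5 with only the 6 libraries of the pair or without Fast replicate 1. Without Fast replicate 1, Pdgfa (edgeR adjusted p = 0.0144), Pdgfra (0.0403) and Pdgfrb (0.0154) passed as well. With only the 6 libraries of the pair these 3 had edgeR adjusted p-values of 0.0177, 0.0491 and 0.0189. The count was 1 without Fast replicate 2 or 3, Medium replicate 3, or Slow replicate 2 or 3, and 1 with DESeq2. The median log2 difference of all tested genes was 0.0078 in Fast against Slow, 0.0092 in Fast against Medium and 0.0036 in Medium against Slow. Fewer tested genes moved further than Pdgfa in its direction than moved further than the receptors in theirs. In Fast against Slow 1.29% were further down than Pdgfa, while 4.51% were further up than Pdgfd, 6.12% than Pdgfra and 7.18% than Pdgfrb.

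**Figure D3:**
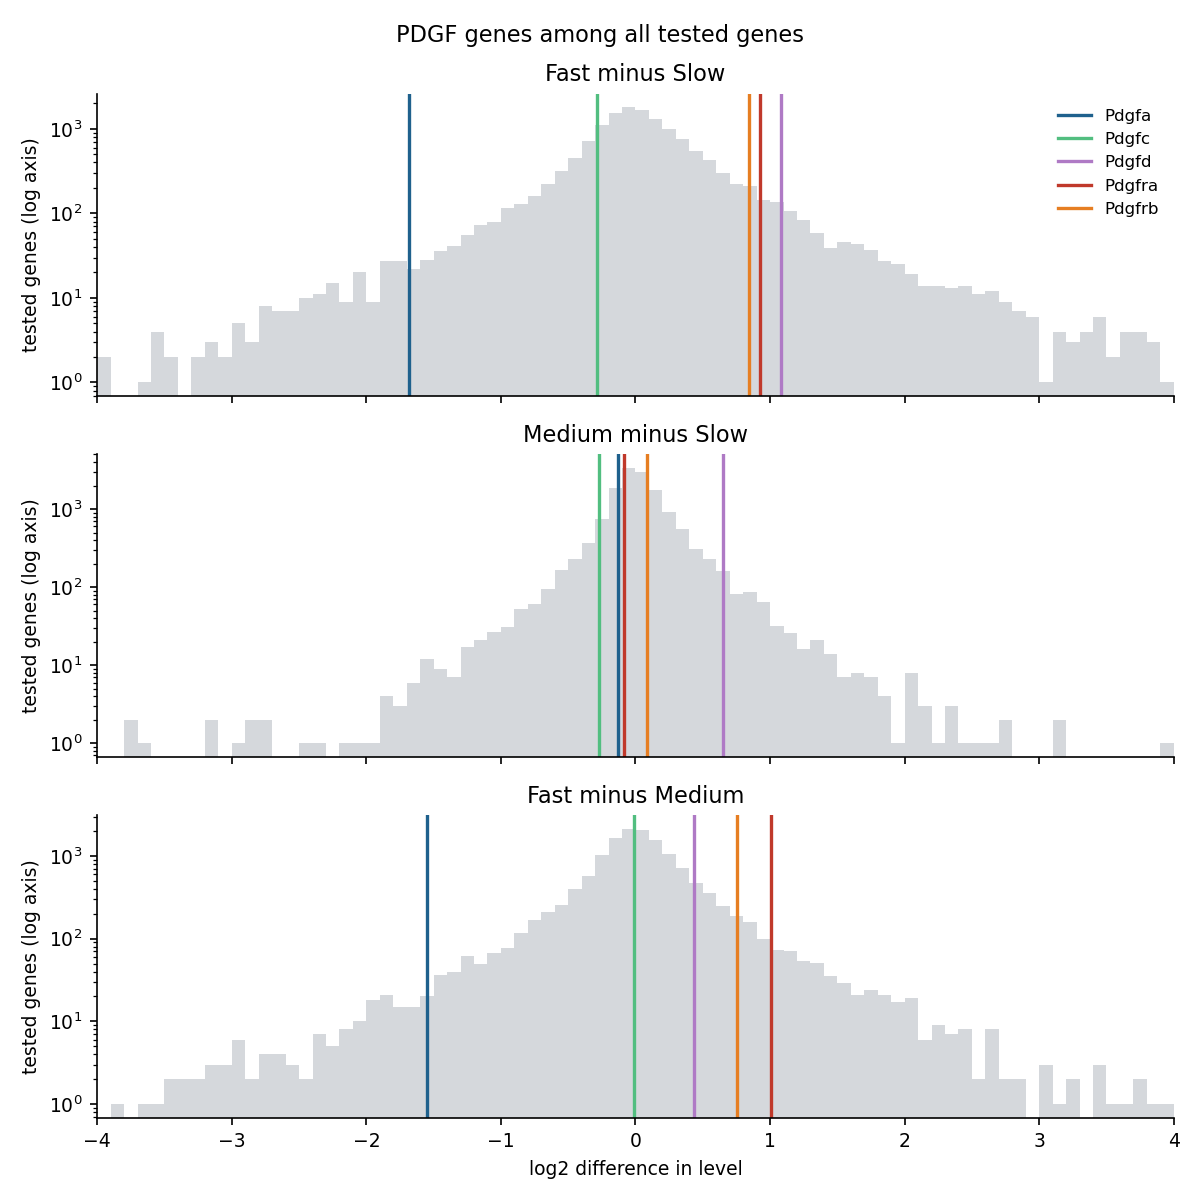
Number of tested genes (log axis) in bins of log2 difference, drawn between -4 and 4, for Fast minus Slow, Medium minus Slow and Fast minus Medium, with the 5 tested PDGF genes as vertical lines. Pdgfa lies in the lower tail in both comparisons with Fast, and the receptors lie on the upper side there and near 0 in Medium minus Slow.

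The make-up of the ligand transcripts shifted with these changes. Pdgfa took 68.8 to 72.6% of the summed ligand FPKM in the Fast libraries, against 88.3 to 89.2% in Medium gels and 87.9 to 89.4% in Slow. Pdgfc took 20.4 ± 0.753% in Fast gels, 8.73 ± 0.432% in Medium gels and 9.65 ± 0.679% in Slow, and Pdgfd 7.99 ± 1.40%, 2.5 ± 0.254% and 1.46 ± 0.101%. A share also rises when the rest of the sum falls. Pdgfc itself was not higher in Fast gels, at a mean of 6.82 FPKM against 6.88 in Medium gels and 8.32 in Slow gels. The ratio of Pdgfa to Pdgfc, which does not depend on how libraries are scaled, was 3.28, 3.48 and 3.71 in Fast gels, 9.57, 10.3 and 10.6 in Medium gels and 9.94, 8.49 and 9.27 in Slow gels. Fast libraries were below all others, and Medium and Slow overlapped. An exact permutation test over all 1680 assignments of 9 libraries to 3 groups gave p = 0.00714 for any difference among the 3 gels (also 0.00714 after Benjamini-Hochberg adjustment over 2 ratios). On the log2 scale this ratio differed by -1.40 for Fast minus Slow, 0.14 for Medium minus Slow and -1.54 for Fast minus Medium. The pairs gave two-sided exact permutation p-values of 0.1, 0.2 and 0.1 in that order, where 0.1 is the smallest that 3 against 3 allow. Summed ligand FPKM was 33.5 ± 1.84 in Fast gels, 78.7 ± 1.81 in Medium gels and 86.2 ± 0.877 in Slow gels. Summed receptor FPKM was 261 ± 6.0 in Fast gels, 143 ± 2.66 in Medium gels and 142 ± 1.11 in Slow gels.

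The receptors did not keep a fixed ratio. Pdgfra FPKM divided by Pdgfrb FPKM was 0.887, 0.877 and 0.882 in Fast gels, 0.720, 0.746 and 0.746 in Medium gels and 0.812, 0.815 and 0.869 in Slow gels. The Medium libraries were the lowest, the Fast libraries the highest, and no groups overlapped. The same exact permutation test gave p = 0.00357, the smallest that these 9 libraries allow (0.00714 adjusted). On the log2 scale the ratio differed by 0.085 for Fast minus Slow, -0.17 for Medium minus Slow and 0.26 for Fast minus Medium, and each pair gave an exact permutation p of 0.1, the smallest that 3 against 3 allow.

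**Figure D4:**
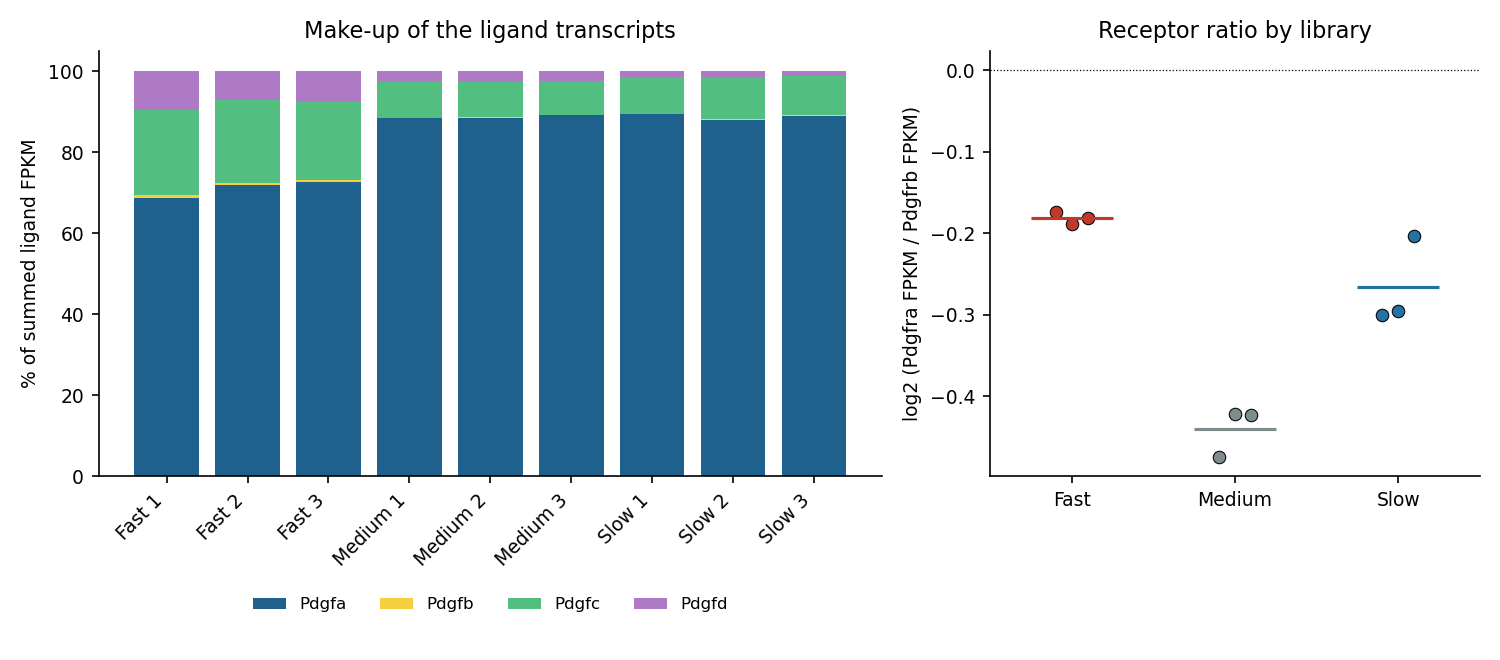
Left, share of each ligand gene in the summed ligand FPKM of each library; right, log2 ratio of Pdgfra to Pdgfrb FPKM by library, with group means as lines and 0 (equal FPKM) dotted. Pdgfa takes a mean of 71.1% of the ligand sum in Fast, 88.6% in Medium and 88.8% in Slow, and the receptor ratio is lowest in Medium.

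Other genes of the pathway were read from lists chosen by role, and each list is given by its counts and median without a test. Over all 14406 tested genes 21.2% were higher and 21.7% lower in Fast against Slow, the shares to set beside each list count, markers included. In Medium against Slow these shares were 4.74% and 5.57%. Scaling by library size alone put the median log2 difference of all tested genes at 0.094 in Fast against Slow, so list medians nearer to 0 than that have no settled sign. Of the 14 genes that process or bind PDGFs or act as co-receptors, 5 were higher and 5 lower in Fast against Slow (median log2 difference 0.046). The protease gene Furin was lower, at 476 ± 31.1 CPM in Fast gels, 690 ± 9.10 in Medium gels and 700 ± 9.45 in Slow gels (log2 -0.56 ± 0.038 for Fast minus Slow, adjusted p = 2.09e-08). Thbs1 (-1.04 ± 0.037), which encodes the matrix protein thrombospondin 1, and the lipoprotein receptor gene Lrp8 (-1.02 ± 0.071) were lower too. Nrp2, a neuropilin gene, was higher by 0.42 ± 0.029. A list of relatives held VEGF family genes, other receptors built like those of PDGF, their ligand genes Kitlg and Csf1, and the receptor-like gene Pdgfrl. Of its 11 tested genes, 5 were higher and 5 lower in Fast against Slow (median 0.060). Among the VEGF family ligand genes, Vegfa (-0.77 ± 0.030) and the placental growth factor gene Pgf (-1.31 ± 0.066) were lower in Fast, while Figf, the VEGF-D gene, was higher by 1.48 ± 0.066. Csf1r, the receptor gene of a macrophage growth factor, was higher by 0.69 ± 0.050.

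Genes of the relay inside the cell came in a receptor list and a downstream list. Of 24 tested adaptor, kinase and other genes that act at the receptor, 6 were higher and 9 lower in Fast against Slow (median -0.046). The shares over all tested genes were 21.2% higher and 21.7% lower. Grb10, an adaptor gene, had the largest difference among those named (1.00 ± 0.040), at 323 ± 17.2 CPM in Fast gels, 194 ± 4.49 in Medium gels and 162 ± 3.09 in Slow gels. The adaptor genes Nck2 (-0.64 ± 0.071) and Crk (-0.41 ± 0.056) were lower. Of 22 RAS, MAP kinase and AKT genes 1 was higher and 12 were lower (median -0.13), against the same shares. Among the lower ones were Srf at -0.49 ± 0.057, Prkca at -0.43 ± 0.072 and Rhoa at -0.21 ± 0.029. In Medium against Slow, 2 genes of the receptor list were higher and 1 was lower, and in the relay list 0 were higher and 1 was lower in edgeR's test. In that pair 4.74% of all tested genes were higher and 5.57% lower.

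Feedback and response genes were read as 2 lists. Of 23 genes that restrain PDGF signalling, 4 were higher, 11 lower and 8 not called in Fast against Slow (median -0.18), where 21.7% of all tested genes were lower. Among the lower ones were the phosphatase genes Dusp6 (-1.41 ± 0.041), Dusp5 (-1.85 ± 0.055) and Dusp4 (-1.33 ± 0.13) and the sprouty gene Spry4 (-1.44 ± 0.049). Of 20 tested early genes that PDGF is known to induce in fibroblasts, 1 was higher and 18 were lower (median -0.82). Egr1, a zinc finger transcription factor gene, had 147 ± 6.60 CPM in Fast gels, 327 ± 4.31 in Medium gels and 326 ± 5.18 in Slow gels. Nr4a1 (-2.13 ± 0.034), Ier3 (-2.12 ± 0.036) and Plaur (-1.13 ± 0.033) were the others with the smallest p. These genes respond to many stimuli besides PDGF. In Medium against Slow the early gene list had 3 higher and 7 lower (median -0.049), and the list of restraining genes had 1 higher and 2 lower (median -0.0095). Of all tested genes 4.74% were higher and 5.57% lower in that pair.

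**Figure D5:**
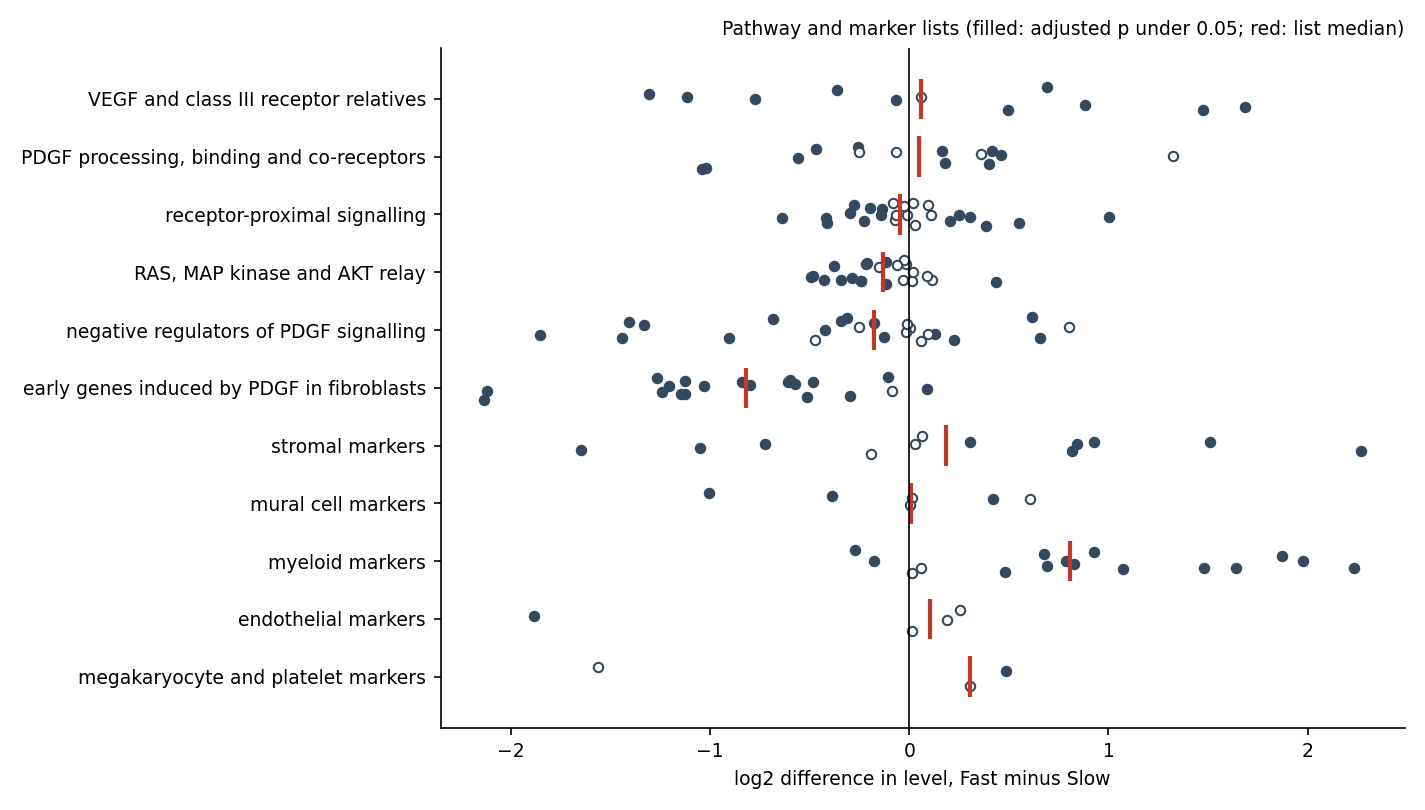
Log2 differences of Fast minus Slow for each tested gene of the pathway and marker lists; filled points have an adjusted p under 0.05 and red bars are list medians. The medians are -0.82 for the early genes, -0.18 for the negative regulators and 0.81 for the myeloid markers.

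The labelled cell type was checked against markers. All 12 stromal markers passed the filter, with the collagen gene Col3a1 the most abundant by FPKM and the leptin receptor gene Lepr at 1.77 ± 0.507 CPM in Fast gels, 1.64 ± 0.344 in Medium gels and 2.02 ± 0.220 in Slow gels. Leaving out the PDGF receptors themselves, their summed level was 35800 to 39830 CPM in Fast gels, 30360 to 30910 in Medium gels and 27580 to 28070 in Slow gels. Most of that sum is Col1a1, named after its values were seen, at 16380 CPM in Fast gels and 9311 in Slow gels, and Col3a1, at 15640 in Fast gels and 12650 in Slow gels. Of the 10 markers without the receptors, 4 were higher, 3 lower and 3 not called in Fast against Slow. Over all tested genes 21.2% were higher and 21.7% lower. Cxcl12 was higher by 2.27 ± 0.031, and the surface enzyme gene Nt5e (-1.65 ± 0.039) and Cd44 (-1.05 ± 0.034) were lower. Markers of mural cells, which use the beta receptor, summed to 246 to 256 CPM in Fast gels, 449 to 463 in Medium gels and 403 to 410 in Slow gels. Of 8, 6 were tested, and 1 was higher and 2 lower in Fast against Slow. Most of the mural sum is Cspg4, the NG2 proteoglycan gene and the most abundant of them. Its mean was 159 CPM in Fast gels, 361 in Medium gels and 319 in Slow gels, so the sum largely follows this 1 gene. Cspg4 fell by 1.00 ± 0.033 in Fast against Slow and Mcam by 0.39 ± 0.063, Abcc9 rose by 0.42 ± 0.060 and Des was at 0.61 ± 0.30 (adjusted p = 0.119). Kcnj8 (0.0030 ± 0.19, edgeR adjusted p = 0.99) and Notch3 (0.011 ± 0.12, edgeR adjusted p = 0.95) were not called in Fast against Slow. Rgs5 and Higd1b, named after their values were seen, were at or near 0, with at most 2 and 5 reads in a library.

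Myeloid markers were also counted in every gel. All 16 passed the filter, and in Fast against Slow 12 were higher, 2 were lower and 2 were not called (median 0.81). In that pair 21.2% of all tested genes were higher and 21.7% lower. The lower ones were Itgam (-0.18) and Cd14 (-0.27), and Ptprc (0.012) and Laptm5 (0.060) were not called; these 4 were named after their values were seen. Lyz2, the lysozyme gene and the most abundant of them, had 947 ± 37.6 CPM in Fast gels, 398 ± 6.44 in Medium gels and 340 ± 11.3 in Slow gels. Adgre1 rose by 1.07 ± 0.031 in Fast against Slow, Aif1 by 1.64 ± 0.080 and Cybb by 0.83 ± 0.044. In Medium against Slow 10 were higher and 0 lower in edgeR's test (median 0.31), where 4.74% of all tested genes were higher and 5.57% lower. In that pair Pdgfrb was at 0.089 ± 0.028 (edgeR adjusted p = 0.0569) and Pdgfra at -0.084 ± 0.030 (adjusted p = 0.102). A link between the receptors and these markers was not tested.

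Vessel and platelet markers were also read. Of 8 endothelial markers 7 were found and 4 tested, with 0 higher and 1 lower in edgeR's test, and the sum was 17.3 to 20.6 CPM in Fast gels, 18.4 to 21.6 in Medium gels and 17.4 to 18.6 in Slow gels. Cdh5, Kdr and Emcn, also of this list, had at most 4, 6 and 2 reads in a library. Tie1, the most abundant, was at 0.25 ± 0.12 (adjusted p = 0.093), Erg fell by 1.89 ± 0.29, and Tek (0.19 ± 0.37) and Vwf (0.015 ± 0.27) did not pass. Of 8 megakaryocyte and platelet markers 3 were tested, with 1 higher and 0 lower. That one was Pf4, a chemokine gene, at 494 ± 16 CPM in Fast gels, 495 ± 14.1 in Medium gels and 352 ± 3.19 in Slow gels. Itga2b and Gp9 were at 0.30 ± 0.24 and -1.56 ± 0.66 and did not pass, Gp1bb had 0 reads, and Ppbp, Gp6 and Treml1 had at most 4, 8 and 3.

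The genes most like each member were sought among 10409 genes with at least 50 reads on average, by the root mean square difference of centred log2 CPM over the 9 libraries. Nearest to Pdgfa were Clcf1 (0.083), a cytokine gene of the interleukin-6 family, Prkar1b (0.10), a regulatory subunit gene of protein kinase A, and Scin (0.11), an actin-severing protein gene, against a median distance of 0.77 over all candidates. Clcf1 had 44.0 ± 0.580 CPM in Fast gels, 129 ± 2.81 in Medium gels and 152 ± 2.37 in Slow gels. Nearest to Pdgfra were Il6st (0.039), the gene of the shared receptor subunit gp130, Irak3 (0.057) and Cd302 (0.068), with a median of 0.47. Il6st stood at 445 ± 6.69 CPM in Fast gels, 225 ± 1.81 in Medium gels and 242 ± 5.56 in Slow gels. Nearest to Pdgfrb were Cybb (0.042), the phagocyte oxidase gene of the myeloid list, Itga11 (0.048), a collagen receptor subunit, and Ltbp2 (0.051), a matrix protein gene, with a median of 0.40. Cybb had 216 ± 14.4 CPM in Fast gels, 130 ± 1.11 in Medium gels and 122 ± 0.396 in Slow gels.

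The nearest genes of the less abundant ligand genes Pdgfd and Pdgfc were read in the same way. Pdgfd had Txnip (0.10), which encodes a thioredoxin-binding protein, Ctss (0.12), a lysosomal protease gene of the myeloid list, and Stab1 (0.12), a scavenger receptor gene of macrophages, with a median of 0.47. Stab1 had 203 ± 4.91 CPM in Fast gels, 144 ± 0.397 in Medium gels and 95 ± 6.31 in Slow gels. Pdgfc had Pqlc1 (0.042), Usp32 (0.048), a deubiquitinase gene, and Manf (0.056), a secreted protein of the endoplasmic reticulum, but its median distance to all candidates was only 0.20. These are descriptions of 9 libraries that fall into 3 groups.

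In the authors' deposited table, where fold changes run as the slower over the faster gel, the log2 values for Slow over Fast were 1.69 for Pdgfa, -0.92 for Pdgfra and -0.83 for Pdgfrb. The same table gave Pdgfc an adjusted p of 0.0613 for Slow over Fast and 0.062 for Slow over Medium, past 0.05 in neither. For Slow over Medium the authors' deposited table gave adjusted p-values of 0.0102 for Pdgfa, 0.0174 for Pdgfra and 0.00592 for Pdgfrb, which are under 0.05. The edgeR model of all 9 libraries gave 0.106, 0.102 and 0.0569 for these, and some of its alternatives passed, as given above. For Pdgfd the authors' deposited table gave -1.08 for Slow over Fast (adjusted p = 2.89e-06) and -0.43 for Medium over Fast (adjusted p = 0.0863). Both sets of values rest on the same libraries.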

How the data were processed

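Sequencing followed Illumina protocols after library construction from mRNA with a single-cell QIAGEN kit, per the labels' protocols. One deposited table held all values. It lists, per the file headers, 1 count and 1 FPKM value for every gene and library. For each pair of groups the authors deposited a log2 fold change and a p-value, and their test is not stated. The authors also deposited the gene length in bases, and their group means were not used here. Tools named in the submitters' processing notes, without roles, are HTSeq, Cufflinks 2.1.1 and Bowtie 0.12.9, and the build named there is mm10. Since the gene identifiers are those of rat in Ensembl, the table's own build is not given in the sources used here. Whether counting used strand is not stated.

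The members and lists were chosen with earlier results of these data known. Genes with low counts were removed with filterByExpr in edgeR 4.0.16 (minimum count 10, groups of 3). The 14406 genes kept held 99.91% of counts. Counts were scaled with TMM factors and tested with edgeR's quasi-likelihood test, all 9 libraries in 1 model without a block, and p-values were adjusted by the Benjamini-Hochberg method over all tested genes (threshold 0.05). The SE is the log2 difference divided by the square root of F. The fit was tested on simulated data in which few genes were changed, and only in Fast. That setting is unlike these data, where 42.9% of tested genes were called in Fast against Slow. Alternatives were other scalings, DESeq2 1.42.0, limma 3.58.1 (voom, and log2(FPKM + 1)), other filters, a replicate block, single pairs and each library left out. All 6 members were named, with the 3 genes most like each member that had at least 50 reads on average and was called in a pair (placeholder symbols left out), the 4 list genes of smallest adjusted p in Fast against Slow and the most abundant gene of each marker list. Some list genes are not reported here. Others were chosen after their values were seen: markers at or near 0, Lepr, Col1a1, Kcnj8, Notch3 and 4 myeloid markers. Promoter sequences are from RefSeq, and motifs were counted in 250-base windows.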

Additional observations from a re-analysis of the deposited data

How the results depend on the processing

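Of 375 recomputed differences of single genes, 345 kept their direction and their side of the threshold, among them all those of Pdgfa, Pdgfra and Pdgfrb in Fast against Slow, Fast against Medium and Medium against the midpoint. The cause of the exceptions was not tested. Pdgfc in Fast against Slow was -0.20 with library size only (adjusted p = 0.0602). Pdgfc in Medium against Slow lost its call with upper quartile factors (-0.26), library size only (-0.26), DESeq2 (-0.27), limma on log2(FPKM + 1) (-0.24), no filter beyond 1 count (-0.27) and the replicate block (-0.27, adjusted p = 0.0606). The number of PDGF genes called in Medium against Slow was then 1 with DESeq2, limma on log2(FPKM + 1), no filter or the replicate block, and 5 with only the 6 libraries of the pair, where Pdgfa (-0.13), Pdgfra (-0.084) and Pdgfrb (0.089) passed. Pdgfrb also passed under upper quartile and under library size scaling (0.10 each). Pdgfd in Fast against Medium was 0.43 without a filter (adjusted p = 0.0515). The number called was 4 in place of 5 in Fast against Slow with library size only, and 3 in place of 4 in Fast against Medium without a filter or without Fast replicate 1, Medium replicate 1 or Medium replicate 3. Pdgfc in Fast against Medium, not called, turned to 0.033 (upper quartile) and 0.06 (library size).

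With each library left out in turn, the count in Medium against Slow ran from 0 to 5. The Medium against Slow differences ran from -0.32 to -0.23 for Pdgfc, 0.55 to 0.71 for Pdgfd, -0.15 to -0.12 for Pdgfa, -0.10 to -0.060 for Pdgfra and 0.071 to 0.10 for Pdgfrb. In Fast against Medium they ran from -0.053 to 0.039 for Pdgfc and from 0.33 to 0.53 for Pdgfd. Libraries that share a number did not deviate together (r from -0.032 to 0.046 over 9 pairs), so the numbers were not taken as pairs. The replicate block changed no other call. Of all genes called in Fast against Slow, 49.4% were higher, against 59.7% under upper quartile and 65.1% under library size scaling. In Fast against Medium these shares were 47.5%, 57.9% and 63.9%, and for Medium against the midpoint library size scaling gave 47.1% in place of 59.6%. Depth limits Pdgfb most, with 1 to 7 reads per library. It did not pass the filter, so most alternatives give it no value, and without a filter edgeR gave 0.64 ± 0.79 in Fast against Slow (adjusted p = 0.596).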

Other observations

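The positions of genes next to the members were also read, and the neighbours named here were chosen after their values were seen. Prkar1b, 1 of the 3 genes most like Pdgfa over the 9 libraries, is also a neighbour of Pdgfa in the deposited table, on the same strand of chromosome 12 with a gap of 21760 bases. It had 9.43 ± 1.15 CPM in Fast gels, 25.9 ± 1.06 in Medium gels and 32.0 ± 2.71 in Slow gels (SD, n = 3). A long noncoding RNA gene between them, AABR07035486.1, had at most 4 reads in a library. Csf1r, a myeloid marker, lies 8107 bases from the end of Pdgfrb on the same strand of chromosome 18. It had 95.4 ± 6.22 CPM in Fast gels, 79.5 ± 0.619 in Medium gels and 59.0 ± 0.406 in Slow gels. Medium lay above Slow for Csf1r (log2 0.43 ± 0.050, edgeR adjusted p = 4.71e-05). For Pdgfrb the Medium libraries also lay above the Slow ones without overlap, by 0.089 ± 0.028 (edgeR adjusted p = 0.0569). Whether these genes differed in this step was not tested. No annotated gene with more than 4 reads in a library overlapped a member.

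Pdgfrl, the gene of a receptor-like protein without a kinase domain, was chosen after its values were seen. It stood at 34.3 CPM in Fast gels, 21.2 in Medium gels and 18.6 in Slow gels, higher in Fast against Slow by 0.88 (edgeR adjusted p = 5.06e-06).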
